A study of Mus musculus with 25 samples.

Results

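The genes of cholesterol synthesis, other targets of the transcription factor SREBP2 and genes that regulate SREBP2 were followed in the livers of 25 mice. They were 28 genes listed by name, and a locus of the deposited tables was taken as a member where its gene symbols, split at commas, held one of the names. Of the 28 genes, 27 had a locus in both age cohorts, and Mvd was not analysed here. They filled 28 loci among 46499 in the mice aged 20 weeks, where Sc5d had a major and a minor locus, and 27 loci among 46052 in the mice aged 39 weeks. All of these loci passed the filter of a mean of at least 1 FPKM (fragments per kilobase of transcript, scaled to the mapped total), so no member was lost to low values.

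All mice were of the C57BL/6 strain, and whole liver was sequenced. The cohort aged 20 weeks held 4 mice labelled Ncoa5+/- and 4 wild type mice, all untreated. The cohort aged 39 weeks held 5 metformin-treated and 5 untreated mice labelled Ncoa5+/-, with 3 metformin-treated and 4 untreated wild type mice. Treated mice drank water with metformin, a drug for type II diabetes, at a daily dose near 250 mg per kg. Treatment began at an age of 8 weeks and lasted 31 weeks. Ncoa5 encodes a nuclear receptor coactivator, and the series' title concerns a precancerous state of the liver and its response to metformin. The labels name the genotype alone, with no further allele, Cre driver or transgene, and the sex of the mice is not given in the sources used here. Replicate numbers follow the order of deposition and only name a mouse. The labels do not say whether mice shared a litter or cage, so p-values measure the spread between these mice.

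Liver makes cholesterol from acetyl-CoA in a mevalonate arm, which ends in farnesyl diphosphate, and a sterol arm, which runs from squalene through lanosterol to cholesterol. SREBP2 is a membrane-bound transcription factor held in the endoplasmic reticulum by the INSIG proteins when sterols are plentiful. When sterols run low its escort SCAP carries it to the Golgi, where proteases release the part that enters the nucleus and binds the genes of both arms. INSIG1 is itself a target, which closes the loop. Farnesyl diphosphate also feeds non-sterol products, such as the lipid anchors of prenylated proteins, dolichol and ubiquinone.

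The promoters are shown because SREBP2 binds a sterol regulatory element next to sites for the factor NF-Y, whose motif is CCAAT. RefSeq promoters on GRCm38.p6 were found for 24 of the 28 listed genes, Mvd among them, and the 250 bases before each start were searched on both strands, at the start with most matches where a gene has several. Positions count back from the start. CCAAT was present in 20 of these 24 promoters (83.3%), against 37.5% of the 27025 genes with a promoter of this length. At least 2 copies of it were present in 12 of the 24 (50%), against 11.5% of all genes. The palindrome CACGTG was present in 6 of the 24 (25%), against 6.86% of all genes. The 9-letter sterol element TCACNCCAC was present in 1 of the 24, Hmgcs1, and in 1.22% of all genes. No match of CCAAT overlapped the sterol element in the printed promoters. These are counts of letters within a fixed window and show no binding. The 180 bases before the start are printed for 6 of the 20 promoters with CCAAT, as examples from the mevalonate arm, the sterol arm and the regulators that include the sterol element, with CCAAT (or its reverse complement ATTGG) and the sterol element in capitals. Hmgcs1, on the plus strand at chr13:119690171-119690350, holds the sterol element at position -137 from the start, between CCAAT copies at -176 and -45. Mvk, on the plus strand at chr5:114444089-114444268, holds 5 copies of CCAAT. Pmvk at chr3:89454361-89454540 and Lss at chr10:76531425-76531604, both on the plus strand, hold 1 copy each. Msmo1 at chr8:64733579-64733758 and Insig2 at chr1:121332590-121332769, both on the minus strand, hold 3 copies each. Pmvk has 2 starts and Insig2 3 in RefSeq, and the most upstream is shown.
Hmgcs1: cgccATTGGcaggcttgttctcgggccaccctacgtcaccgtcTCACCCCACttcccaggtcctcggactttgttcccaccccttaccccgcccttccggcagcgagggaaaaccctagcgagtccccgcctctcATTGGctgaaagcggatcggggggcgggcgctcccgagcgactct
Mvk: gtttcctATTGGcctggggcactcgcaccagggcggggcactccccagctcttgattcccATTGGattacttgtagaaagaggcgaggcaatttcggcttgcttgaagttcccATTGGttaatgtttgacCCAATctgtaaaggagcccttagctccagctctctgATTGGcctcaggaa
Pmvk: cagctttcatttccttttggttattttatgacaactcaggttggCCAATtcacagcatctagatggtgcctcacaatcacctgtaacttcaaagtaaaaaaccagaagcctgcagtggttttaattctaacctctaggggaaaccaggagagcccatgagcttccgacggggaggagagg
Lss: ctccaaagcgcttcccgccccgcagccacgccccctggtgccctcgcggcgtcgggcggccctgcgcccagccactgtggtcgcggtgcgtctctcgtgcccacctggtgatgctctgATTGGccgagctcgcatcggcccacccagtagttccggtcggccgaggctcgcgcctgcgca
Msmo1: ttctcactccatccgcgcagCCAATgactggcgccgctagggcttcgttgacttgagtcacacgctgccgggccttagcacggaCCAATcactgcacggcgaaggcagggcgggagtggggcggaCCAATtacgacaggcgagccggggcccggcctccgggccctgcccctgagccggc
Insig2: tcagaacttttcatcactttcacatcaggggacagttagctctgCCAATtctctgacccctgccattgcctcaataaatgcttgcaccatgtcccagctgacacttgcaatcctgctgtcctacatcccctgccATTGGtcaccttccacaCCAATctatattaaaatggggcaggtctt

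Several facts of the libraries touch the results. The 50 highest loci took 43.0% to 78.7% of a library's FPKM sum at 20 weeks and 43.1% to 78.3% at 39 weeks. They took over 70% in wild type replicate 4 at 20 weeks and, at 39 weeks, in metformin-treated Ncoa5+/- replicate 5 and untreated Ncoa5+/- replicate 3. At 20 weeks wild type replicates 3 and 4 carry another kind of mouse number in their titles than the other 6 mice. Ncoa5 itself averaged 3.85 FPKM in mice labelled Ncoa5+/- and 4.01 FPKM in wild type mice at 20 weeks, with overlapping ranges, so its level does not separate the labels. At 39 weeks it averaged 3.55 FPKM in treated and 3.72 FPKM in untreated Ncoa5+/- mice, and 4.63 FPKM in treated and 4.17 FPKM in untreated wild type mice. The hepatocyte markers Apob, Tat and Hnf4a were present in every group, while Alb was listed at 0 in every group and Apoa1 and Ttr in some. The level of a gene in whole liver depends on the cells present as well as on the RNA in each, and fewer cells of a type and less RNA per cell cannot be told apart.

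Mean levels of the members ran from 2.07 FPKM for Ggps1, which makes the non-sterol geranylgeranyl diphosphate, to 221 FPKM for the major locus of Sc5d, a sterol desaturase, at 20 weeks. At 39 weeks they ran from 2.46 FPKM for Ggps1 to 294 FPKM for Ebp, the sterol isomerase late in the sterol arm. Ebp, Sc5d, Tm7sf2 and Insig1 were among the higher members in both cohorts. The locus of Tm7sf2, a sterol reductase, is shared with Gm28374, Vps51 and Zfpl1, and that of Fdps, farnesyl diphosphate synthase, with RP24-394C15.7 and Rusc1, so these levels may hold other genes' reads. Ggps1 has a row of its own but shares its interval with Arid4b, as does Sqle with E430025E21Rik and, at 39 weeks, Nsmce2. How reads were split among these genes was not tested. Acat2, the cytosolic thiolase that opens the pathway, has a near-identical neighbour in Acat3, which makes its value uncertain. Because the cohorts were prepared and scaled apart, levels at 20 and 39 weeks are not compared.

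Within the groups, most pairs of members rose and fell together from mouse to mouse. After the group means were taken off, the median correlation over pairs of members was 0.50 over the 8 younger mice and 0.47 over the 17 older mice. Positive pairs made up 81.2% and 82.6% of all pairs. These correlations are a description: the points share libraries, and the mice share the scaling of their cohort. The same values were not computed for pairs of all tested loci, so they show nothing particular to the members. At 20 weeks the members' mean log2 deviation from the cohort mean was 0.40 and 0.58 in wild type replicates 3 and 4. It was -0.09 and -0.11 in wild type replicates 1 and 2, and how far the correlations rest on this split was not tested. The median SD between mice within groups was 0.32 for the members, against 0.25 for all tested loci, at 20 weeks. At 39 weeks it was 0.31 for the members, against 0.18 for all tested loci, and the members above the median locus were 17 of 28 at 20 weeks and 22 of 27 at 39 weeks.

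**Figure D1:**
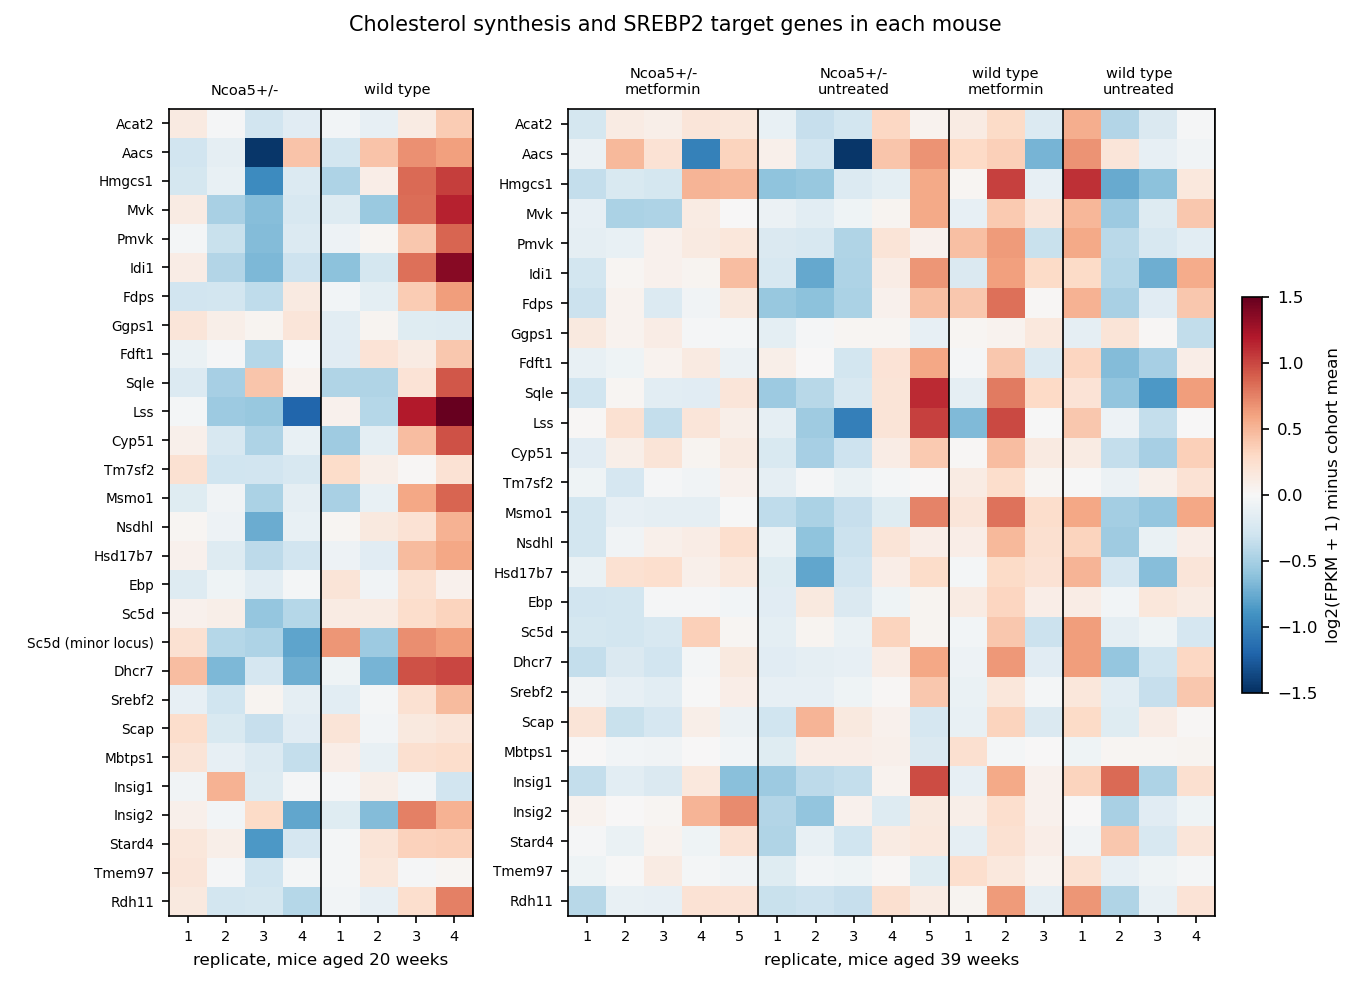
Level of each member locus (rows, ordered by pathway step) in each mouse (columns, by group) as log2(FPKM + 1) minus the mean over the cohort, for 20 weeks (left) and 39 weeks (right). Columns tend to have a single colour: wild type replicates 3 and 4 at 20 weeks are above the cohort mean in 25 and 26 of 28 loci, and metformin-treated wild type replicate 2 at 39 weeks in 26 of 27 loci. The median deviation over all tested loci is -0.03, -0.03 and -0.003 in these mice, and the share of those loci above the cohort mean was not counted.

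How closely a member followed the mean of the other members, within groups, differed among them. Hsd17b7, a keto-reductase of the sterol arm, followed it with r = 0.99 over the younger mice and 0.80 over the older mice. Hmgcs1, the cytosolic HMG-CoA synthase, had r = 0.86 and 0.90, and Fdps had r = 0.74 and 0.94. Srebf2, the gene of SREBP2 itself, had r = 0.66 and 0.84. Its SD between mice was 0.22 at both ages, against medians of 0.25 and 0.18 for all tested loci. In all, 14 of 28 loci at 20 weeks and 16 of 27 at 39 weeks had r above 0.7. The share of all tested loci above that r is not given here, so these counts show nothing particular to the members. The loci under 0.3 were 5 at 20 weeks, namely Ebp, Tm7sf2, Tmem97, Insig1 and Ggps1, and 3 at 39 weeks, namely Scap, Mbtps1 and Ggps1. Ggps1 had r = -0.32 and -0.56. Mbtps1, the Golgi protease that makes the first cut in SREBP2, had r = 0.74 over the younger mice and -0.47 over the older mice, and Scap had r = 0.55 and 0.06. Insig1, which anchors SREBP2 in the endoplasmic reticulum, had r = -0.28 and 0.54.

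**Figure D2:**
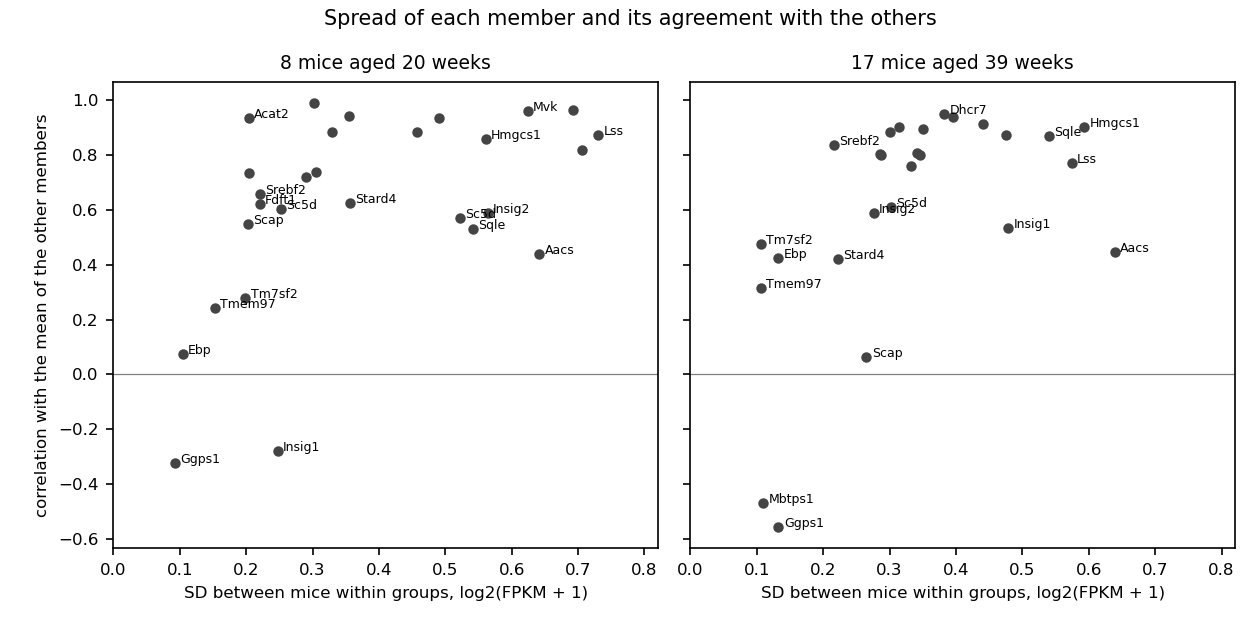
Each member locus as a point, with the SD between mice within groups in log2(FPKM + 1) on the x axis and the correlation with the mean of the other members on the y axis, over 8 mice at 20 weeks (left) and 17 mice at 39 weeks (right). Points at r under 0.7 and some others are named; Ggps1 lies below 0 in both cohorts and Mbtps1 only at 39 weeks.

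The mean of the members relative to the cohort mean gives each mouse a single value on the log2 scale. At 20 weeks it was 0.04, -0.18, -0.40 and -0.23 in the mice labelled Ncoa5+/-, against -0.09, -0.11, 0.40 and 0.58 in the wild type mice. Wild type replicates 1 and 2 lay within the range of the Ncoa5+/- mice, and replicates 3 and 4 above all other mice. At 39 weeks it was -0.16, -0.06, -0.06, 0.05 and 0.11 in metformin-treated Ncoa5+/- mice and -0.24, -0.27, -0.28, 0.10 and 0.33 in untreated Ncoa5+/- mice. It was 0.03, 0.46 and -0.01 in metformin-treated wild type mice and 0.35, -0.25, -0.27 and 0.16 in untreated wild type mice. All 4 groups overlapped at 39 weeks, and the SD was 0.11 (n = 5) in metformin-treated Ncoa5+/- mice, against 0.27 (n = 5) in untreated Ncoa5+/- mice, a difference in spread that was not tested.

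**Figure D3:**
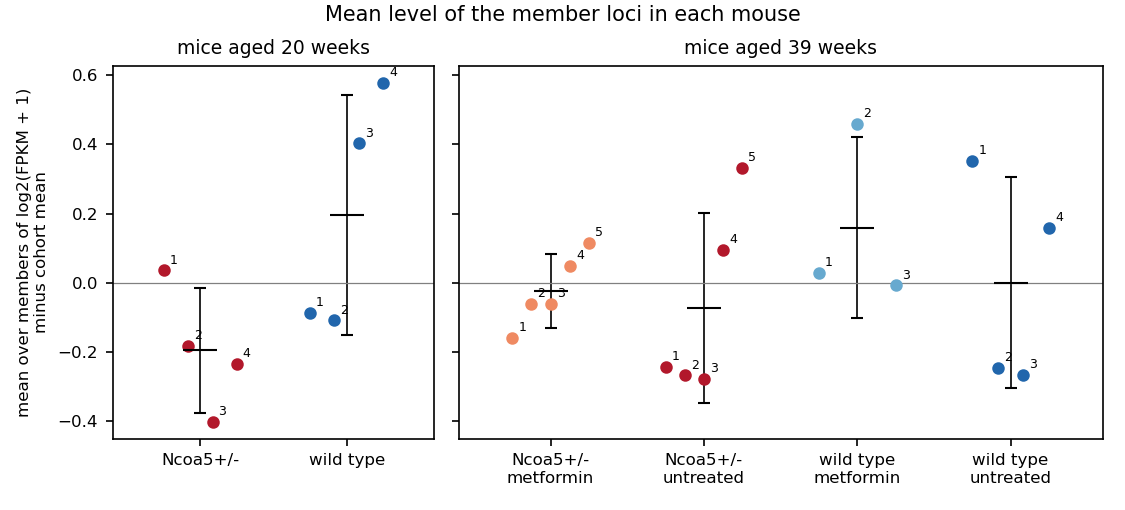
Mean over the member loci of log2(FPKM + 1) minus the cohort mean (y axis) in each mouse, with groups on the x axis; the small numbers name the replicate, and bars give the group mean and SD. At 20 weeks wild type replicates 3 (0.40) and 4 (0.58) lie above the other 6 mice, and at 39 weeks all 4 groups overlap.

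The first comparison asked how the members differed with genotype at 20 weeks, when no mouse had been treated. Of the 28 member loci, 0 passed limma at an adjusted p under 0.05, as did 0% of the 10963 tested loci, of which 820 (7.48%) had an unadjusted p under 0.05. The smallest adjusted p of a member was 0.603. The log2 fold change of Ncoa5+/- over wild type was negative at 26 of the 28 loci, against 45.6% of all tested loci, and its median was -0.41, against 0.03 for all tested loci. An unadjusted p under 0.05 with a lower mean in Ncoa5+/- mice was found at 5 member loci, against 2.43% of all tested loci. By role, the median was -0.62 for the mevalonate arm, -0.41 for the sterol arm, -0.24 for the regulators of SREBP and -0.42 for the other 3 targets.

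Among the mevalonate genes, Hmgcs1 had 49.4, 54.6, 30.4 and 51.2 FPKM in Ncoa5+/- mice, against 42.5, 63.6, 108 and 123 FPKM in wild type mice. The groups overlapped, since wild type replicate 1 lay below 3 of the Ncoa5+/- mice. The log2 fold change of Hmgcs1 was -0.76 ± 0.34 (SE, limma, adjusted p = 0.603). Pmvk, which adds the phosphate after that of mevalonate kinase, had 33.6, 27.0, 21.4 and 29.6 FPKM in Ncoa5+/- mice, against 32.4, 35.1, 45.8 and 63.4 FPKM in wild type mice. Only Ncoa5+/- replicate 1 reached into the wild type range, and the log2 fold change was -0.61 ± 0.23 (limma, adjusted p = 0.603). Mvk, the mevalonate kinase, averaged 6.23 ± 1.73 FPKM in Ncoa5+/- mice and 11.2 ± 6.49 FPKM in wild type mice (SD, n = 4 each). Acat2, Aacs (which charges acetoacetate for the pathway), Idi1 (the isopentenyl diphosphate isomerase) and Fdps had log2 fold changes of -0.17 to -0.73. Ggps1 went the other way, with 2.47, 2.26, 2.14 and 2.48 FPKM in Ncoa5+/- mice, against 1.74, 2.13, 1.69 and 1.68 FPKM in wild type mice. It was the only member without overlap whose values were higher in Ncoa5+/- mice, as were 2.96% of all tested loci (log2 fold change 0.25 ± 0.11, limma, adjusted p = 0.603).

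In the sterol arm the values of all 12 loci averaged lower in Ncoa5+/- mice on the log2 scale, and none passed the test. Lss, which closes squalene epoxide into lanosterol, had 12.9, 8.67, 8.47 and 5.17 FPKM in Ncoa5+/- mice, against 13.8, 9.45, 31.3 and 38.9 FPKM in wild type mice. Its log2 fold change, -1.17 ± 0.44, was the lowest of all members (limma, adjusted p = 0.603), and the wild type values fall into a low and a high pair. The major Sc5d locus had 228, 231, 145 and 161 FPKM in Ncoa5+/- mice, against 235, 237, 261 and 273 FPKM in wild type mice. It was the only member without overlap whose values were lower in Ncoa5+/- mice, as were 1.06% of all tested loci (log2 fold change -0.42 ± 0.18, limma, adjusted p = 0.603). Nsdhl, a sterol dehydrogenase that helps remove methyl groups, averaged 26.5 ± 5.94 FPKM in Ncoa5+/- mice and 36.0 ± 5.63 FPKM in wild type mice (SD, n = 4 each; log2 fold change -0.45 ± 0.19, limma, adjusted p = 0.603). Sqle, the squalene epoxidase, had 11.9, 9.52, 18.8 and 14.4 FPKM in Ncoa5+/- mice, against 9.91, 9.85, 16.2 and 27.3 FPKM in wild type mice. These ranges overlapped, and only wild type replicate 4 lay above every Ncoa5+/- mouse (log2 fold change -0.12 ± 0.33).

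Among the regulators, Srebf2 had 8.50, 7.34, 9.57 and 8.38 FPKM in Ncoa5+/- mice, against 8.25, 9.10, 11.1 and 13.3 FPKM in wild type mice (log2 fold change -0.26 ± 0.15, limma, adjusted p = 0.607). Insig1 had 91.9, 137, 83.2 and 94.3 FPKM in Ncoa5+/- mice, against 94.4, 101, 92.9 and 78.2 FPKM in wild type mice. It was the other member with a positive log2 fold change, 0.13 ± 0.17. Scap, Mbtps1 and Insig2, a second anchor of SREBP in the endoplasmic reticulum, had log2 fold changes of -0.24, -0.25 and -0.22. Of the remaining targets, Stard4, a carrier of sterol between membranes, had -0.43, Rdh11, a retinol dehydrogenase, -0.42, and Tmem97, a membrane protein linked to sterol traffic, -0.08.

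The negative values at 20 weeks rest in part on a pair of libraries. The highest of the 8 mice was wild type replicate 4 at 19 of the 28 loci and wild type replicate 3 at 4 loci. The same count was not made over all tested loci, whose median deviation from the cohort mean was -0.03 in both mice. Without both, the median log2 fold change of the members was -0.12, with 19 of 28 loci negative, and that of Sqle was 0.39. Without wild type replicate 4 alone it was -0.25. The macrophage markers were also lower on average in Ncoa5+/- mice at all 6 of 6 genes, with a summed level of 20.4 to 32.9 FPKM in Ncoa5+/- mice and 24.8 to 58.0 FPKM in wild type mice, and their part in the result was not tested. The endothelial markers Stab2, Pecam1, Kdr, Cdh5 and Clec4g were lower too (Kdr at -0.53), and Lyve1 was higher at 0.34. The tested stellate and fibroblast markers Col3a1, Dcn, Lrat and Reln had log2 fold changes of -0.13, -0.0014, -0.47 and -0.12. Spp1, a cholangiocyte marker, had 0.14 and Ptprc, a lymphocyte marker, 0.06. The 3 hepatocyte markers tested (Apob, Tat and Hnf4a) had log2 fold changes of 0.62, 1.198 and 0.07. Their list had a summed level of 2330 to 2574 FPKM in Ncoa5+/- mice and 1053 to 2196 FPKM in wild type mice, without overlap. The erythroid markers had a summed level of 264 to 347 FPKM in Ncoa5+/- mice and 222 to 261 FPKM in wild type mice, without overlap, and their 5 tested loci had positive log2 fold changes with a median of 0.33. The part of these other cell type markers in the result was not tested either.

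The authors' deposited table compared the same groups and lists a group FPKM for each, with a p-value and q-value per locus. It marked 294 of 13975 tested loci (2.1%) as significant. Hmgcs1 was the only member among them, at 42.5 FPKM in Ncoa5+/- mice and 85.7 FPKM in wild type mice (log2 fold change -1.01, q = 0.00413, in the authors' deposited table). A p under 0.05 was given to 14 of the 28 member loci in the authors' deposited table, against 10.4% of all tested loci, and 26 had a negative log2 fold change. These are the same mice, so the counts do not add to those above.

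The pathways next to the members did not share one direction at 20 weeks, and none of their genes passed the test. The lipogenic genes of SREBP1, the relative of SREBP2 that drives fatty acid synthesis, were negative at all 10 tested loci of 12 genes, with a median of -0.29. Acacb, an acetyl-CoA carboxylase, had -0.44 ± 0.14 and Acss2, which makes acetyl-CoA from acetate, -0.74 ± 0.29. The genes of sterol efflux and of LXR, the sterol-sensing receptor that opposes SREBP2, were negative at 8 of 10 tested loci with a median of -0.24. Abcg8, of the biliary sterol exporter, had -0.54 ± 0.25 and Lpcat3, a phospholipid-remodelling target of LXR, -0.43 ± 0.27. The non-sterol isoprenoid branch was positive at 7 of 11 loci with a median of 0.07, led by Nus1, a subunit of the dolichol-making prenyltransferase, at 0.47 ± 0.17, and Fnta, the farnesyltransferase alpha subunit, at 0.34 ± 0.19. Other genes that process SREBP or degrade the pathway's enzymes had a median of 0.12, led by the ubiquitin ligase gene Rnf139 at 0.34 ± 0.15.

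**Figure D4:**
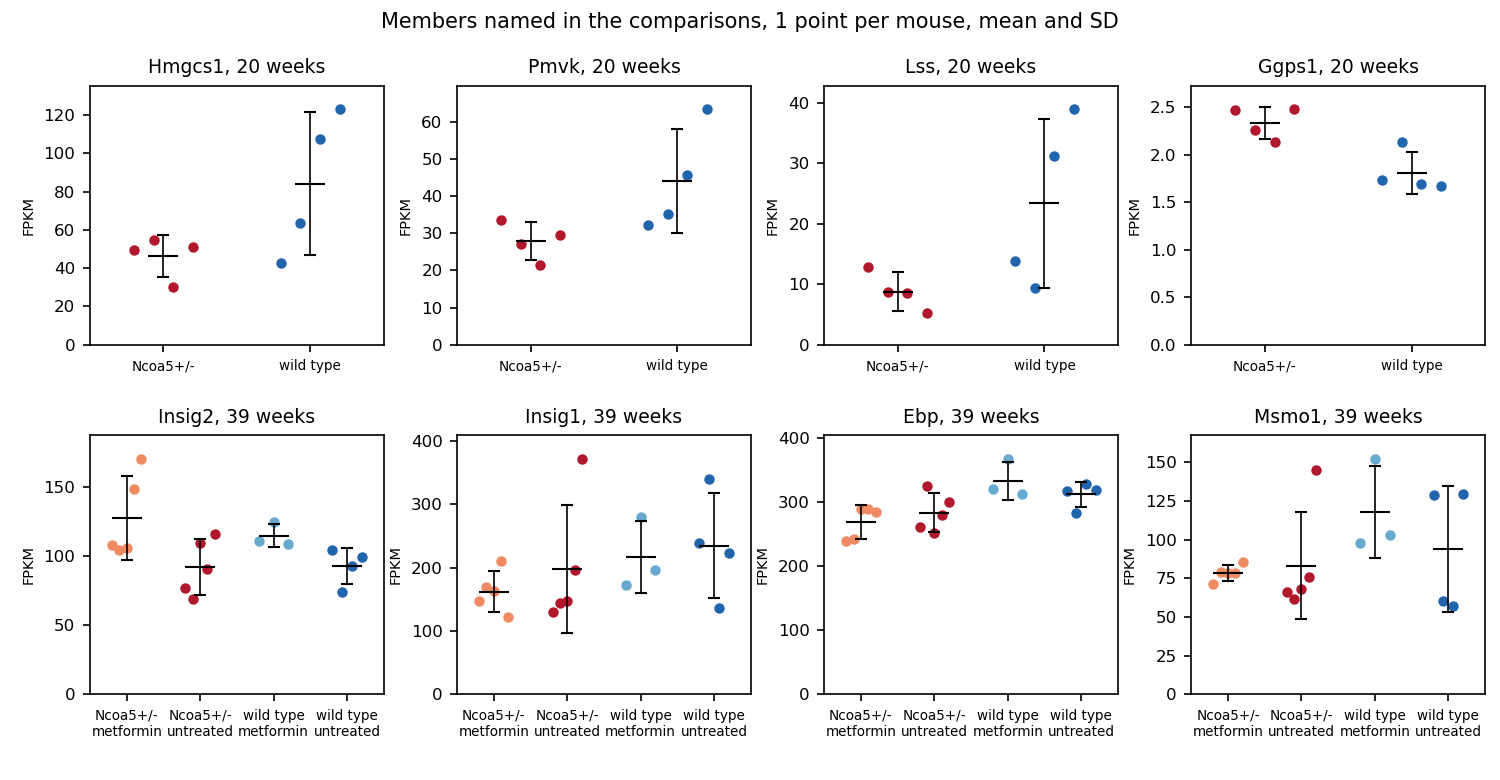
FPKM (y axis, from 0) of 4 members in each mouse at 20 weeks (top) and 4 members at 39 weeks (bottom), by group, with the mean and SD. In wild type mice at 20 weeks Hmgcs1 runs from 42.5 to 123 FPKM and Lss from 9.45 to 38.9 FPKM; at 39 weeks Ebp in metformin-treated Ncoa5+/- mice lies below metformin-treated wild type mice.

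The second comparison set the genotypes side by side at 39 weeks without treatment. Of the 27 members, 0 passed limma at an adjusted p under 0.05, against 0.262% of the 11441 tested loci (30 loci). The log2 fold change of Ncoa5+/- over wild type was negative at 21 members, with a median of -0.07, against -0.02 for all tested loci, and 0 members had an unadjusted p under 0.05, against 5.62% of all loci. The share of all tested loci that were negative is not given here, so the sign count shows nothing particular to the members. No member separated the groups, against 1.81% of all loci. The sign of the median rested on single mice: without wild type replicate 1 it was 0.05, with 18 of 27 members positive.

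Hmgcs1 at 39 weeks had 51.9, 53.3, 68.5, 71.6 and 118 FPKM in untreated Ncoa5+/- mice, against 170.1, 46.7, 51.5 and 88.3 FPKM in untreated wild type mice (log2 fold change -0.16 ± 0.37). Sqle had 17.7, 19.3, 21.9, 30.1 and 57.9 FPKM in untreated Ncoa5+/- mice, against 30.3, 17, 13.9 and 40.9 FPKM in untreated wild type mice (log2 fold change 0.18 ± 0.33). In both genes a single mouse or a pair in each group stood above the rest. Srebf2 had 13.9, 13.8, 14.5, 15.4 and 20.4 FPKM in untreated Ncoa5+/- mice, against 17.2, 13.5, 11.7 and 20.4 FPKM in untreated wild type mice (log2 fold change 0.01 ± 0.14). Insig1 had 129, 144, 147, 196 and 372 FPKM in untreated Ncoa5+/- mice, against 239, 339.7, 136 and 224 FPKM in untreated wild type mice (log2 fold change -0.29 ± 0.30). Of these 4 genes, only Insig1 kept the sign of its log2 fold change when each mouse was left out in turn.

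The smallest p among the members at 39 weeks without treatment belonged to Ebp, at 283 ± 29.8 FPKM in the 5 Ncoa5+/- mice and 312 ± 19.7 FPKM in the 4 wild type mice (SD), with a log2 fold change of -0.14 ± 0.09 (limma, adjusted p = 0.913). Fdft1, the squalene synthase at the branch point into sterols, went against the majority at 57.1 ± 13 FPKM in Ncoa5+/- mice and 47.1 ± 15.4 FPKM in wild type mice (log2 fold change 0.30 ± 0.20, limma, adjusted p = 0.913). Tm7sf2 had a log2 fold change of -0.10 ± 0.08. None of the 4 neighbouring lists held a gene that passed. Among their smallest p-values, the locus of Erlin2, a partner in the degradation of pathway enzymes, shared with Prosc, had -0.21 ± 0.08 (limma, adjusted p = 0.743), and Erlin1 had 0.27 ± 0.13. The others were Soat1, a cholesterol esterifying enzyme, at -0.42 ± 0.21, Abcg1, a sterol exporter, at -0.17 ± 0.14, the prenyltransferase genes Pggt1b at -0.18 ± 0.10 and Pdss1 at -0.22 ± 0.13, and the lipogenic genes Pnpla3 at 0.59 ± 0.29 and Thrsp at -0.65 ± 0.42. Soat1 and Pnpla3 were low, averaging 0.89 and 1.61 FPKM in untreated Ncoa5+/- mice and 1.59 and 0.71 FPKM in untreated wild type mice.

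Under metformin, the Ncoa5+/- mice had lower mean log2 values than the wild type mice at 26 of the 27 members, against 51.8% of all tested loci, and 0 members passed limma at an adjusted p under 0.05, against 0.157% of all tested loci. An unadjusted p under 0.05 was found at 2 members, Ebp and Tm7sf2, both lower in Ncoa5+/- mice, against 2.26% of all tested loci in that direction and 4.35% in either. The median log2 fold change was -0.16, against -0.01 for all tested loci. By role it was -0.20 in the mevalonate arm, -0.20 in the sterol arm, -0.08 among the regulators and -0.16 in the other targets. At 2 members, Ebp and Msmo1, every treated Ncoa5+/- mouse lay below every treated wild type mouse, which held at 1.72% of all tested loci. Without wild type replicate 2, the highest of its group of 3, the median was -0.02 with 15 of 27 members negative.

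Ebp had 239, 241, 288, 289 and 285 FPKM in metformin-treated Ncoa5+/- mice, against 319, 367 and 312 FPKM in metformin-treated wild type mice. Its log2 fold change was -0.31 ± 0.10 (limma, adjusted p = 0.765), and it was between -0.36 and -0.24 when each mouse was left out in turn. Msmo1, a monooxygenase that helps remove methyl groups in the sterol arm, had 71.3, 78.9, 78.4, 78.2 and 85.5 FPKM in treated Ncoa5+/- mice, against 98.1, 152 and 103 FPKM in treated wild type mice. The log2 fold change of Msmo1 was -0.56 ± 0.30 (limma, adjusted p = 1). Tm7sf2 averaged 164 ± 12.9 FPKM in treated Ncoa5+/- mice (n = 5) and 188 ± 15.7 FPKM in treated wild type mice (n = 3), a log2 fold change of -0.20 ± 0.08. Tmem97 averaged 83.9 ± 4.35 FPKM in treated Ncoa5+/- mice and 93.9 ± 6.49 FPKM in treated wild type mice, a log2 fold change of -0.16 ± 0.08. Both had overlapping groups and an adjusted p of 1.

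The other named genes under metformin overlapped between genotypes. Hmgcs1 had 61.4, 67.5, 65.7, 113 and 112 FPKM in treated Ncoa5+/- mice, against 80.8, 162 and 73 FPKM in treated wild type mice (log2 fold change -0.28 ± 0.40). Sqle had 21.0, 26.8, 23.4, 23.1 and 29.9 FPKM in treated Ncoa5+/- mice, against 23.8, 45.6 and 32.5 FPKM in treated wild type mice (log2 fold change -0.40 ± 0.36). Srebf2 had 14.6, 13.8, 13.5, 15.1 and 16.3 FPKM in treated Ncoa5+/- mice, against 14.1, 17.2 and 14.9 FPKM in treated wild type mice (log2 fold change -0.06 ± 0.15). In each of these genes wild type replicate 2 was the highest of the 8 treated mice. Insig1 had 148, 169, 163, 210.1 and 122 FPKM in treated Ncoa5+/- mice, against 173, 280.3 and 197 FPKM in treated wild type mice (log2 fold change -0.41 ± 0.32). Insig2 was the only member with a positive log2 fold change, 0.12 ± 0.19. In the neighbouring lists 0 genes passed. The smallest p-values belonged to Sec23a, of the vesicle coat that carries SREBP to the Golgi, at 0.30 ± 0.14, and to Rnf139 at 0.12 ± 0.07. Nr1h2, an LXR gene, had -0.16 ± 0.10, Scarb1, the HDL receptor, -0.18 ± 0.13, Fntb, whose locus is shared with Churc1, -0.10 ± 0.08, Coq2, of ubiquinone synthesis, 0.08 ± 0.07, the lipogenic malic enzyme gene Me1 0.59 ± 0.30, and Thrsp -0.34 ± 0.45.

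**Figure D5:**
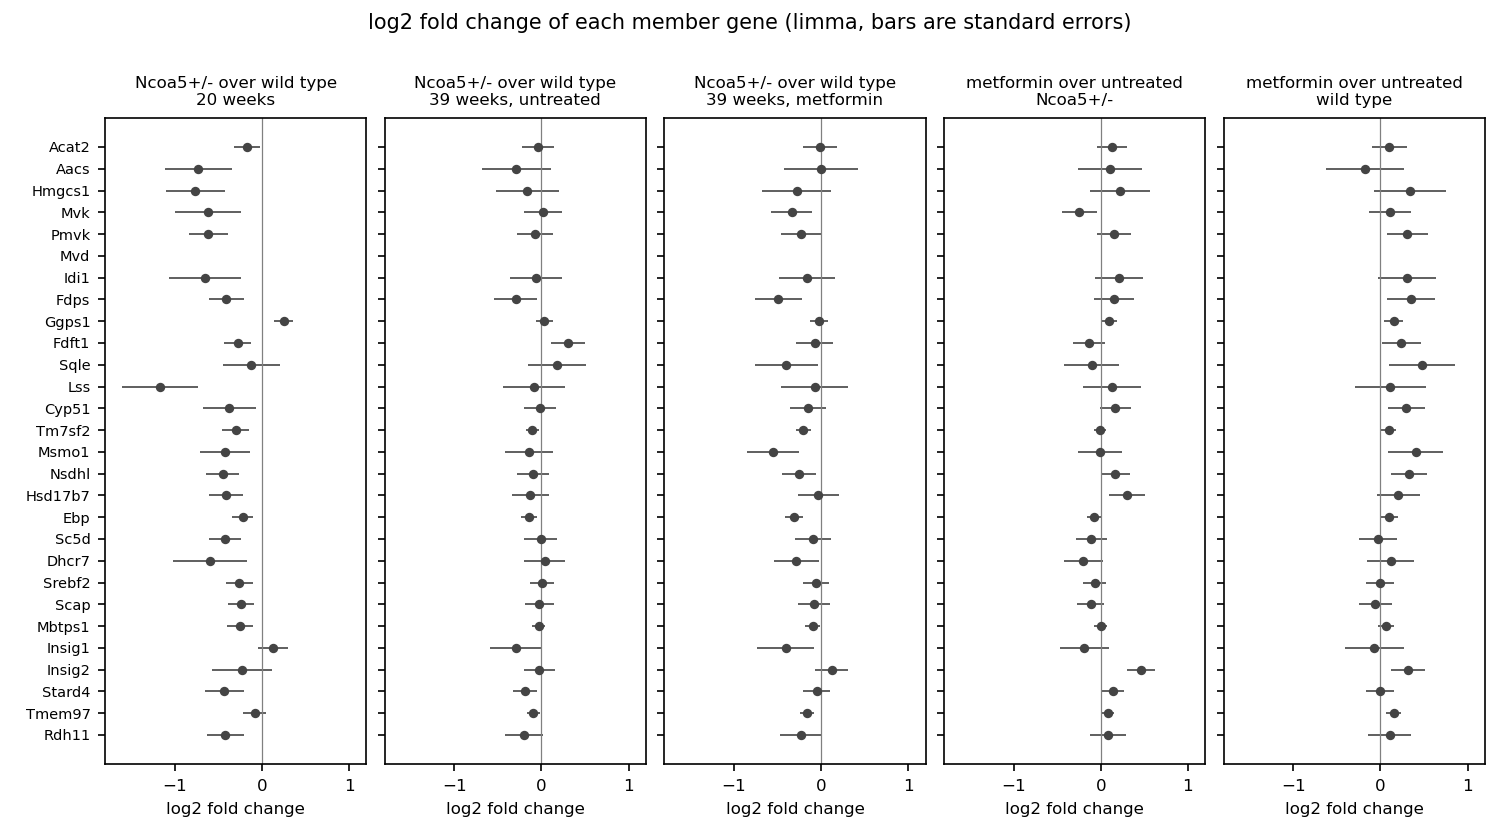
log2 fold change (x axis) with its standard error for each member gene (rows, in pathway order, the major locus for Sc5d, no value for Mvd) in 5 comparisons. Most points lie left of 0 for Ncoa5+/- over wild type at 20 weeks and under metformin at 39 weeks, and Insig2 lies right of 0 in both comparisons of metformin with no treatment.

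Metformin was compared with no treatment within each genotype. In mice labelled Ncoa5+/-, 0 of 27 members passed limma, as did 0% of the 11441 tested loci, of which 1010 (8.83%) had an unadjusted p under 0.05. The log2 fold change of treated over untreated was positive at 15 members and negative at 12, with a median of 0.09, against 0 for all tested loci. Without the libraries whose 50 highest loci took over 70% of the FPKM sum, the median was -0.04, and it was between 0.02 and 0.16 when each mouse was left out in turn. By arm, the median was 0.14 in the mevalonate arm, with 7 of 8 positive, and -0.01 in the sterol arm, with 4 of 11 positive. In wild type mice 0 of 27 members passed, as did 0% of all tested loci, of which 1070 (9.35%) had an unadjusted p under 0.05. There the log2 fold change was positive at 21 of 27 members, with a median of 0.12, against -0.01 for all tested loci, and the median was 0.03 without treated replicate 2 and 0.29 without untreated replicate 1. The share of all tested loci with a positive value is not given here for either genotype. These sign counts therefore show nothing particular to the members.

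Insig2, by its p among the members, ranked first in Ncoa5+/- mice and next after Tmem97 in wild type mice. By log2 fold change it was the highest in Ncoa5+/- mice, while in wild type mice Sqle, Msmo1, Fdps, Hmgcs1 and Nsdhl were above it. It had 108, 104, 106, 149 and 170.1 FPKM in treated Ncoa5+/- mice, against 76.6, 68.5, 109, 90.4 and 115 FPKM in untreated Ncoa5+/- mice. It had 111, 124 and 109 FPKM in treated wild type mice, against 104, 74.1, 92.6 and 99.1 FPKM in untreated wild type mice. In wild type mice the groups did not overlap, as at 4.37% of all tested loci in that direction, and in Ncoa5+/- mice untreated replicates 3 and 5 reached into the treated range. The log2 fold change was 0.46 ± 0.16 in Ncoa5+/- mice (limma, adjusted p = 0.454) and 0.32 ± 0.20 in wild type mice (limma, adjusted p = 0.634). It was between 0.35 and 0.55 in Ncoa5+/- mice and between 0.22 and 0.38 in wild type mice when each mouse was left out in turn, and the interaction of genotype and metformin was 0.15 ± 0.26. In Ncoa5+/- mice Insig2 was the only member with an unadjusted p under 0.05, as were 3.95% of all tested loci in that direction. No member separated the treated from the untreated Ncoa5+/- mice, against 1.57% of all tested loci. The authors' deposited table gave Insig2 113 FPKM in treated and 80.2 FPKM in untreated Ncoa5+/- mice (log2 fold change 0.50, p = 0.0779), and marked 0 members, against 1.22% of its 14159 tested loci. It gave 0 members a p under 0.05, against 5.83% of those loci. Its lowest q among the members was 0.860, at Insig1.

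The other members named in Ncoa5+/- mice did not pass the test. Hsd17b7 averaged 19.5 ± 1.95 FPKM in treated mice and 16.1 ± 4.51 FPKM in untreated mice (n = 5 each), a log2 fold change of 0.30 ± 0.20 (limma, adjusted p = 0.696). Mvk averaged 14.8 ± 2.91 FPKM in treated mice and 17.8 ± 4.30 FPKM in untreated mice (SD, n = 5 each), and its log2 fold change of -0.25 ± 0.20 was the lowest of the members (limma, adjusted p = 0.736). Hmgcs1 had a log2 fold change of 0.22 ± 0.34, Sqle -0.10 ± 0.31, Srebf2 -0.07 ± 0.13 and Insig1 -0.19 ± 0.28, the values per mouse being those given above for the treated and untreated Ncoa5+/- groups. Untreated replicate 5 was the highest of the 10 Ncoa5+/- mice for all 4 genes, and the values of Sqle, Srebf2 and Insig1 turned positive without it.

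In wild type mice Tmem97 had 100.2, 94.3 and 87.3 FPKM with metformin, against 99, 77, 80.2 and 82.5 FPKM without it (log2 fold change 0.15 ± 0.09, limma, adjusted p = 0.603). Nsdhl had 41.5, 54.8 and 46.0 FPKM with metformin, against 49.0, 26.4, 36.1 and 41.6 FPKM without it (log2 fold change 0.33 ± 0.20, limma, adjusted p = 0.634). Both pairs of groups overlapped. Aacs, with -0.18 ± 0.45, had the lowest log2 fold change. Hmgcs1 had 0.34 ± 0.42, Sqle 0.47 ± 0.38, Srebf2 -0.0039 ± 0.16 and Insig1 -0.07 ± 0.34 on the same scale.

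Around the pathway, Srebf1, the gene of SREBP1, at a locus shared with Mir6922, averaged 91.0 ± 27.3 FPKM in treated and 163 ± 59.9 FPKM in untreated Ncoa5+/- mice (SD, n = 5 each). Its log2 fold change was -0.80 ± 0.24 in Ncoa5+/- mice (limma, adjusted p = 0.402) and -0.74 ± 0.29 in wild type mice (limma, adjusted p = 0.450). In wild type mice it averaged 88.5 ± 8.50 FPKM with metformin (n = 3) and 152 ± 40.8 FPKM without it (n = 4). Srebf2, by comparison, had log2 fold changes of -0.07 ± 0.13 in Ncoa5+/- mice and -0.0039 ± 0.16 in wild type mice. The SREBP1 lipogenic genes were negative at 8 of 11 tested loci in Ncoa5+/- mice, with a median of -0.03, and at 9 of 11 in wild type mice, with a median of -0.19. Me1 had 0.65 ± 0.26 in Ncoa5+/- mice and Fasn, fatty acid synthase, -0.64 ± 0.43 in wild type mice. Mylip, a ubiquitin ligase induced by LXR, had 0.44 ± 0.17 and Lcat, which esterifies plasma cholesterol, -0.13 ± 0.09 in Ncoa5+/- mice, while Soat1 had -0.39 ± 0.24 and Abca1, a sterol exporter, -0.12 ± 0.10 in wild type mice. Soat1 averaged only 0.94 FPKM in treated and 1.59 FPKM in untreated wild type mice. Of the prenyltransferase genes, Rabggta had -0.17 ± 0.07 and Rabggtb, at a locus shared with Snord45b and Snord45c, 0.15 ± 0.08 in Ncoa5+/- mice, while Pggt1b had -0.21 ± 0.11 and Rabggtb 0.16 ± 0.10 in wild type mice. Of the SREBP processing list, the locus of Erlin2 with Prosc had -0.27 ± 0.09 (limma, adjusted p = 0.373) and that of Mbtps2 with Yy2 0.17 ± 0.14 in wild type mice. None of the genes in these lists passed the adjusted threshold in either genotype.

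The test of whether metformin went with a different change in the genotypes found 0 of 27 members, as it did 0% of all tested loci, of which 319 (2.79%) had an unadjusted p under 0.05. The interaction was negative at 21 members and positive at 6, with a median of -0.10, against 0.01 for all tested loci. The share of all tested loci with a negative interaction is not given here, so this count is only a description. The members' median was 0.01 without treated wild type replicate 2. The smallest p-values belonged to Fdft1 at -0.37 ± 0.29, Ebp at -0.17 ± 0.13 and Sqle at -0.58 ± 0.49, all with a limma adjusted p of 0.991. Aacs had 0.29 ± 0.58, the highest of the members, Hmgcs1 -0.12 ± 0.54, Srebf2 -0.07 ± 0.20 and Insig1 -0.12 ± 0.44. Of the neighbouring genes, Soat1 had 0.66 ± 0.32, Me1 0.62 ± 0.41 and Pnpla3 -0.60 ± 0.43, and the Erlin2 locus, Abcg1, Pggt1b and Rabggta lay between -0.16 and 0.25. Soat1 and Pnpla3 have levels near the filter of 1 FPKM.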

How the data were processed

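The authors sequenced liver RNA from 2 cohorts, 25 mice in all. Per the submitters' processing notes, reads were trimmed with Trimmomatic 0.33, aligned with TopHat2 to GRCm38.p5 and quantified with Cufflinks and Cuffnorm, whose versions are not given in the sources used here. The deposited value per locus and mouse is FPKM, scaled within a cohort. The cohorts came from 2 facilities and were fitted apart. Read depth is unknown, so only the spread between mice gives precision. The authors' deposited comparison tables hold group FPKM, log2 fold changes and a p-value and q-value per locus, and their direction was turned so that the treated or Ncoa5+/- group is on top.

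Values were analysed as log2(FPKM + 1), at loci with a cohort mean of at least 1 FPKM, with limma 3.58.1 in R 4.3.3 (lmFit, eBayes with a trend), 2 groups at 20 weeks and 4 at 39 weeks. Benjamini-Hochberg adjustment ran over all tested loci, with a threshold of 0.05. Fold changes on this scale understate those of low genes. Loci at 0 in every mouse of a group but present in all mice of another were left out as failed estimates, 15 at 20 weeks and 14 at 39 weeks. The fit was tested on simulated data with independent noise and shifts larger than the log2 fold change of any member in the main fit. How well it finds smaller changes was not tested. The members and lists were chosen with earlier results of these data known. Genes named are Hmgcs1, Sqle, Insig1 and Srebf2, the 3 members with the smallest p and the one furthest against the majority in each comparison, 2 genes per neighbouring list and 5 loci most like the members; other members were added for their role, and some genes named by this rule are not reported here. Alternatives were pseudocounts of 0.1 and 5, a filter of 5 FPKM or none, quantile normalization, a median shift, no trend, array weights, the compared groups alone, loci with a single regular symbol and leaving out mice.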

Additional observations from a re-analysis of the deposited data

Results flagged for a closer look

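Of 142 sets of 4 or 5 mice (1 member locus in 1 group, or the mean of the members in 1 group), 10 held a mouse set apart by a wide gap from the rest of its group. About 1 in 20 would do so if values were normally distributed. The sets share mice and the FPKM values were not put on a log scale, so that rate is only a guide. In untreated Ncoa5+/- mice at 39 weeks, replicate 5 was the high one at 4 members. It had 372 FPKM of Insig1, against 129 to 196 FPKM in the other 4 mice, and 145 FPKM of Msmo1, against 61.8 to 75.8 FPKM. It had 25.3 FPKM of Mvk, against 14.9 to 17.2 FPKM, and 20.4 FPKM of Srebf2, against 13.8 to 15.4 FPKM. Untreated wild type replicate 1 at 39 weeks had 411 FPKM of Sc5d, against 222 to 253 FPKM in the other 3 mice.

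In metformin-treated Ncoa5+/- mice, replicate 1 had 35.9 FPKM of Acat2, against 46.1 to 49.3 FPKM in the other 4 mice, and replicate 3 had 91.4 FPKM of Tmem97, against 80.5 to 83.7 FPKM. At 20 weeks, Ncoa5+/- replicate 1 had 195 FPKM at the shared locus of Tm7sf2, against 135 to 141 FPKM in the other 3 mice. Wild type replicate 2 at 20 weeks had 2.13 FPKM of Ggps1, against 1.68 to 1.74 FPKM, and 8.09 FPKM at the minor locus of Sc5d, against 19.5 to 20.5 FPKM. No member passed the test of an interaction between genotype and metformin.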

How the results depend on the processing

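The count of members that passed the threshold was 0 in every comparison under every alternative, and the smallest adjusted p of a member under any of them was 0.0730, at 20 weeks. The median log2 fold change of the members moved by more than the spread between mice once: it was -0.12 at 20 weeks without wild type replicates 3 and 4, which also turned Sqle to 0.39. Without libraries whose 50 highest loci took over 70%, Sqle was 0.17 at 20 weeks and the interaction at Aacs -0.14. For metformin in wild type mice, Srebf2 was 0.025 with quantile normalization, 0.018 with a median shift and 0.0014 with array weights, and Insig1 0.035 with array weights.

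Leaving out each mouse in turn turned the sign of these log2 values, and the cause was not tested. They were not all small: Hmgcs1 was 0.34 for metformin in wild type mice with all mice kept. The ranges for genotype at 20 weeks were Sqle -0.29 to 0.17 and Insig1 -0.025 to 0.21. The ranges for genotype in untreated mice at 39 weeks were Hmgcs1 -0.40 to 0.21, Srebf2 -0.11 to 0.14 and Sqle -0.095 to 0.44. The ranges for genotype under metformin were Hmgcs1 -0.50 to 0.076 and Srebf2 -0.12 to 0.017. The ranges for metformin in Ncoa5+/- mice were Sqle -0.24 to 0.17, Srebf2 -0.11 to 0.023 and Insig1 -0.31 to 0.069. The ranges for metformin in wild type mice were Srebf2 -0.13 to 0.13, Insig1 -0.31 to 0.13, Hmgcs1 -0.016 to 0.71 and Aacs -0.37 to 0.16. The ranges for the interaction were Hmgcs1 -0.49 to 0.24, Srebf2 -0.20 to 0.053, Insig1 -0.32 to 0.14 and Aacs -0.055 to 0.54. No paired analysis was possible because the labels carry no replicate numbers shared between groups. Read depth is unknown, and the 3 treated wild type mice and the 4 per group at 20 weeks leave wide standard errors.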

Other observations

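Outside the listed genes, loci whose levels followed the mean of the members closely within groups, by the lower of the r at 20 and at 39 weeks over 9775 symbols, included Mmab, P2ry4, Cgn and the locus of Mir6904 with Parp1. The points share libraries and scaling, and nothing about shared control follows from them. Mmab, which makes the cobalamin cofactor of methylmalonyl-CoA mutase, had r = 0.98 over the 8 younger and 0.91 over the 17 older mice, and P2ry4, a nucleotide receptor, 0.90 and 0.86. Cgn, of tight junctions, had 0.93 and 0.84, and the Parp1 locus 0.87 and 0.82.

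The locus of Mmab (chr5:114431034-114444060) lies beside that of Mvk (chr5:114444269-114460591) on GRCm38, with 208 bases between them. These bases hold the printed Mvk promoter and its 5 copies of CCAAT. At 20 weeks Mmab had 6.14, 4.15, 3.64 and 4.86 FPKM in Ncoa5+/- mice, against 6.93, 6.29, 14.1 and 17.3 FPKM in wild type mice. As at Mvk, wild type replicates 3 and 4 were the highest. At 39 weeks Mmab had 8.07, 7.75, 8.18, 9.39 and 11.7 FPKM in treated and 7.96, 5.88, 8.25, 10.7 and 15.4 FPKM in untreated Ncoa5+/- mice, and 9.07, 12.7 and 10 FPKM in treated and 13.5, 6.28, 7.87 and 12.6 FPKM in untreated wild type mice.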
